A study of Rattus norvegicus with 3 samples.

Results

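Voltage-gated and related ion channel genes were read from 3 rat expression arrays. They were chosen by name alone, as the probe sets with 1 platform gene symbol that began with Kcn, Cacn or Clcn, or with Scn, Hcn, Trpc, Trpv or Trpm followed by a number. The rule gave 135 probe sets of 86 genes, out of 4736 named genes on the array, and each gene was read from its brightest probe set. These were 54 potassium, 14 calcium, 10 sodium, 5 chloride and 3 TRP channel genes, in 18 families, and no Hcn or Trpm gene was among them. The arrays carried the time-course labels 0.0 h, 0.1 h and 1.0 h, and each label had 1 array of total RNA. Every sample has pineal gland and adrenal medulla as its labelled source, and the labels do not say which tissue gave which RNA. The sources used here do not give the treatment, strain, age or number of animals. With 1 array per label no difference has a replicate check, and no test of the time labels was possible. Precision is limited by this number of arrays.

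Voltage-gated channels open when the membrane potential shifts and let potassium, sodium or calcium ions cross the membrane. Calcium entry through them triggers release of catecholamines from chromaffin cells of the adrenal medulla, and pinealocytes carry voltage-gated calcium and potassium currents as well. Inward rectifier and two-pore domain potassium channels set the resting potential, ClC proteins carry chloride or exchange it for protons, and TRPC channels are cation channels linked to receptor signalling.

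The values were intensities on a linear scale after scaling of the arrays, and a gene counted as above the floor when it exceeded the 40th percentile of the pooled values of the 3 arrays, an intensity of 262.9. On each array between 58.8% and 60.9% of probe sets, leaving out controls, exceeded it. A value below the floor does not show that a gene was silent. Pinealocyte markers were above the floor on all 3 arrays for 6 of 9 genes, among them Tph1 and Asmt of melatonin synthesis. Of the chromaffin markers, 3 of 7 were, namely Pnmt, Chgb and Npy. Th and Dbh, which define catecholamine-making cells such as those of the labelled adrenal medulla, and the vesicle transporter genes Slc18a1 and Slc18a2 were below it on all 3. The beta-actin control was 10.4-fold, 17.8-fold and 44.4-fold brighter at its 3' end than at its 5' end on the 0.0 h, 0.1 h and 1.0 h arrays. The GAPDH control gave 15.3-fold, 18.6-fold and 14.1-fold, so the controls did not share an order over the labels. The part of these ratios in the channel values was not tested. Fewer cells of a type and less RNA per cell cannot be told apart in these samples.

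Channel genes were above the floor on all 3 arrays for 34 of 86 genes, or 39.5%, beside 62.0% of the 4650 other named genes and 61.6% of all named genes. Another 23 were above it on 1 or 2 arrays, or 26.7% of channel genes beside 14.3% of the other genes, and 29 were above it on none. By array, 47, 44 and 44 channel genes were above the floor at 0.0 h, 0.1 h and 1.0 h, or 54.7%, 51.2% and 51.2%, beside 67.6%, 68.7% and 69.6% of all named genes. Above the 75th percentile of pooled values, an intensity of 1960.7, on all 3 arrays were 4 channel genes, or 4.7%, beside 28.6% of all named genes. The channel genes nearest above the floor were Kcng1 with 266.1 at 0.1 h and Kcne1 with 268.6 at 1.0 h. Nearest below it were Cacng1 with 244.0 at 0.1 h and Kcnh5 with 242.4 at 0.0 h.

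The kind of probe set went with these shares. Probe sets made from expressed sequence tags, which carry the prefix rc_ in their names, read 10 of the 86 channel genes, and 9 of these were above the floor on all 3 arrays. Of the 76 channel genes read from other probe sets 25 were, or 32.9%, beside 77.2% and 53.1% of the other named genes read from the 2 kinds of probe set. Genes with several probe sets were above the floor on all 3 arrays for 18 of 35 channel genes, beside 77.4% of such other named genes, and genes with 1 probe set for 16 of 51, beside 54.4%. In channel genes with several probe sets, 4 of the 49 probe sets other than the brightest were above the floor on all 3 arrays, or 8.2%, beside 38.5% of such probe sets in the other named genes. A channel gene's reading therefore mostly rested on 1 probe set. The part of probe design in the shares was not tested.

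**Figure D1:**
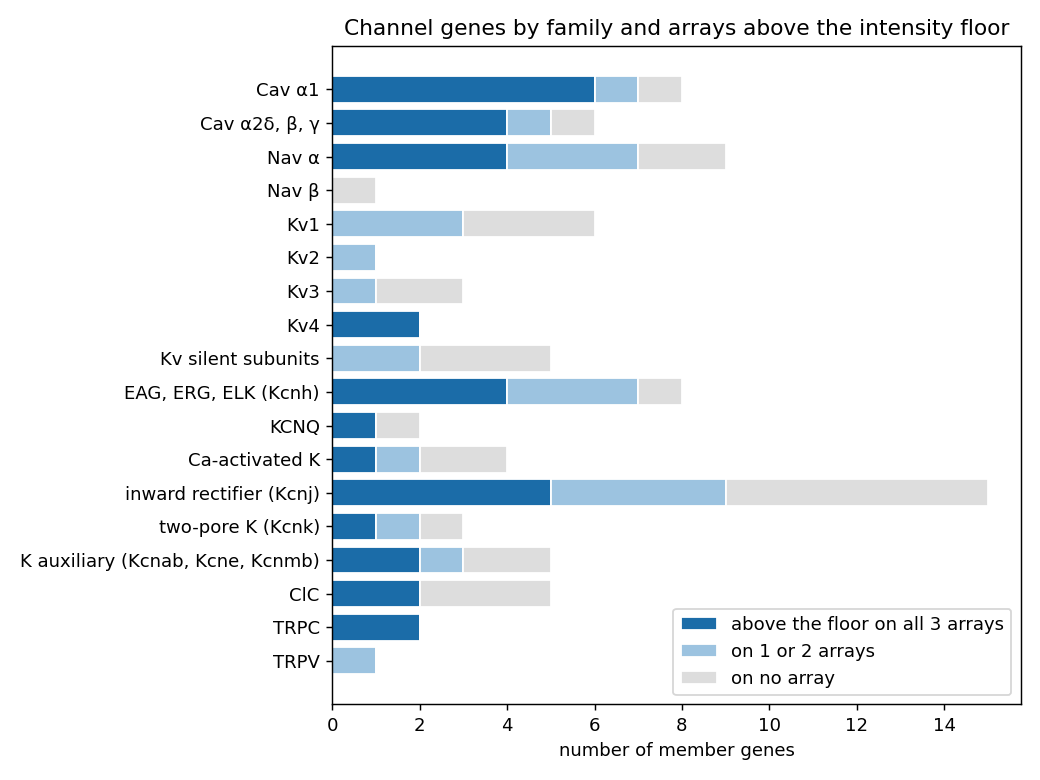
Bars give the number of channel genes in each family, split by whether they lay above the intensity floor on all 3 arrays, on 1 or 2, or on none. Calcium channel α1 and auxiliary genes had 6 of 8 and 4 of 6 on all 3 arrays, and Kv1, Kv2, Kv3 and the silent Kv subunits had none.

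The share of genes above the floor varied between families. Calcium channel genes were above it on all 3 arrays for 10 of 14, or 71.4%, and potassium channel genes for 16 of 54, or 29.6%, beside 61.6% of all named genes. Sodium channel genes were for 4 of 10, chloride channel genes for 2 of 5 and TRP genes for 2 of 3. Potassium channel families differed, and some were split within themselves. Both Kv4 genes, which carry fast transient currents, were above the floor on all 3 arrays. So were 4 of 8 Kcnh genes of the EAG, ERG and ELK group and 5 of 15 inward rectifier genes. None of the 10 genes of the Kv1, Kv2 and Kv3 families was, nor any of the 5 silent subunit genes, whose products make no channel alone but modify Kv2 channels. Of these 15 genes, 7 were above the floor on 1 or 2 arrays. The 4 of 14 calcium channel genes that were read from expressed sequence tag probe sets were all above the floor on the 3 arrays, and 6 of the other 10 were, beside 53.1% of other named genes read from such probe sets. These shares set each gene against 1 common floor and do not rank the levels of different probe sets.

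Calcium channel genes came in pore-forming α1 subunits and in the auxiliary α2δ, β and γ subunits that carry the pore to the membrane and tune it. Cacna1c, the L-type pore of heart, smooth muscle and many excitable cells, had 5085.6 at 0.0 h, 2961.0 at 0.1 h and 6015.2 at 1.0 h, an order of labels kept below. It was lower at 0.1 h than on both other arrays, and 2.03-fold higher at 1.0 h than at 0.1 h. Its other 2 probe sets were each above the floor on 1 array only, and the mean of its 3 probe sets differed by 0.39 on the log2 scale, which is under 2-fold. Cacna1d, the other L-type pore of neuroendocrine cells, had 1353.8, 959.1 and 1892.8. It too was lowest at 0.1 h, and it stood 1.97-fold higher at 1.0 h than at 0.1 h, just under 2-fold. None of its other 4 probe sets was above the floor on more than 1 array. Cacna1g and Cacna1h, which encode low-voltage-activated T-type pores, had 1699.5, 1521.8 and 1970.5, and 1119.0, 966.3 and 929.2. Cacna1a, the P/Q-type pore of nerve endings, had 1419.5, 1381.8 and 1241.3 and differed by no more than 1.14-fold between arrays. These values came from the brightest of 4 probe sets, and the others were below the floor on all 3 arrays. Cacna1b, the N-type pore, had 450.3, 406.7 and 544.9 on the brighter of 2 probe sets, and the other was above the floor at 0.1 h only. Cacna1e, the R-type pore, was above the floor at 0.0 h and 1.0 h with 422.5 and 486.6 and below it at 0.1 h with 182.8. Cacna1s, the L-type pore of skeletal muscle, was below the floor on all 3 arrays on both of its probe sets.

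Of the auxiliary genes, Cacna2d1, an α2δ subunit gene, had 15542.4, 12451.5 and 18825.2 and was above the 75th percentile on all 3 arrays, as was Cacna1c. Cacnb1 had 1268.0, 651.1 and 1294.8, so 0.1 h was 1.95-fold below 0.0 h and 1.0 h was 1.99-fold above 0.1 h. Cacnb3 had 1187.4, 657.3 and 787.2 and was lower on both later arrays than at 0.0 h. Cacnb2 had 904.4, 1117.5 and 952.8 on the brighter of 2 probe sets, with its highest value at 0.1 h. Its other probe set had 464.1, 77.1 and 111.4, lowest at 0.1 h and above the floor at 0.0 h only. Cacng1, the γ subunit gene of skeletal muscle, was above the floor at 0.0 h and 1.0 h with 381.3 and 344.5 and below it at 0.1 h. Cacnb4 was below the floor on all 3 arrays.

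Of the 34 channel genes above the floor on all 3 arrays, 12, 13 and 9 had their lowest value at 0.0 h, 0.1 h and 1.0 h, beside 31.9%, 36.8% and 31.3% of all 2916 such named genes. Their highest value was at 0.0 h for 11, at 0.1 h for 9 and at 1.0 h for 14, beside 31.5%, 35.8% and 32.8% of those genes. The 0.1 h array gave the lowest value of 7 of the 10 calcium channel genes above the floor on all 3 arrays: Cacna1b, Cacna1c, Cacna1d, Cacna1g, Cacna2d1, Cacnb1 and Cacnb3. Of the 16 potassium channel genes, 4 were lowest there. Cacna1e and Cacng1 were above the floor at 0.0 h and 1.0 h and below it at 0.1 h. Of 10 calcium channel genes measured at 0.1 h and 0.0 h, 9 were lower at 0.1 h, beside 1506 of 2993 named genes. The median log2 difference of the calcium channel genes was -0.27, beside 0 over those named genes, and no calcium channel gene was 2-fold lower. The count of 7 genes lowest at 0.1 h was picked after the values were seen, a floor at the 60th percentile gave 4 of 7, and it has no test. The count of 9 and the median of -0.27 rest on the same 10 genes and the same 0.1 h array, so they are no separate check on it. No calcium channel gene had a second probe set that exceeded the floor on every array, so the count of 7 could not be read from second probe sets. The second probe set of Cacna1b had 261.0, 411.1 and 251.3, highest at 0.1 h. That of Cacna1c had 174.5, 209.4 and 291.5, lowest at 0.0 h, and that of Cacna1d 271.8, 169.4 and 181.0, lowest at 0.1 h. Each exceeded the floor on 1 array only.

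**Figure D2:**
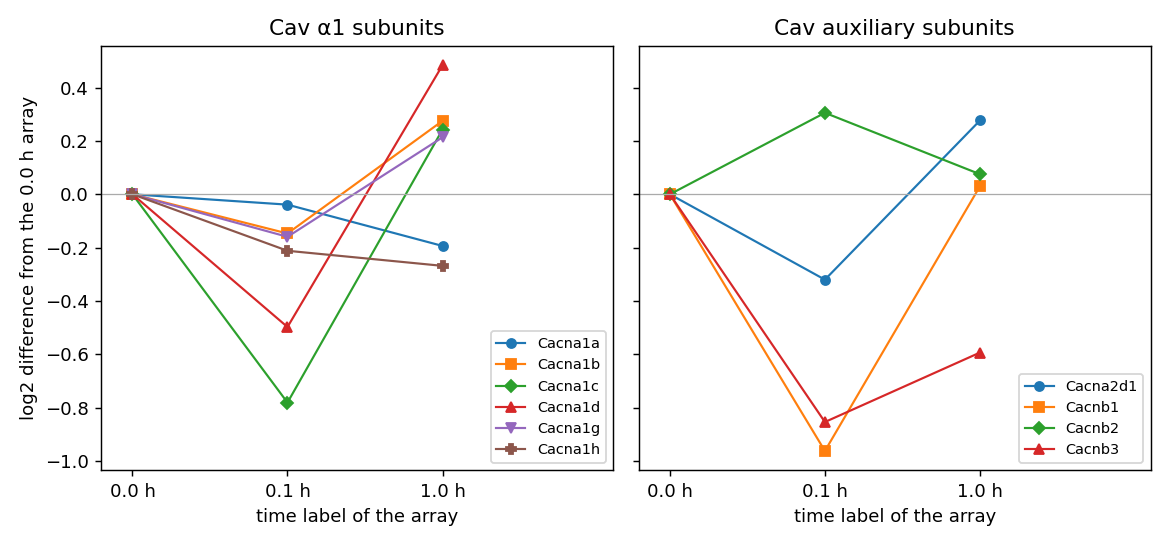
Lines give the log2 difference of each calcium channel gene from its own value on the 0.0 h array, at each time label, for the 6 α1 and 4 auxiliary genes above the floor on all 3 arrays, with 1 array per label. All but Cacnb2 were below 0 at 0.1 h, from -0.04 for Cacna1a to -0.96 for Cacnb1.

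Among inward rectifier genes, 5 of 15 were above the floor on all 3 arrays. Kcnj8 encodes Kir6.1, a pore of ATP-sensitive potassium channels that is well known from blood vessels. It had 326.2, 674.8 and 848.7 at 0.0 h, 0.1 h and 1.0 h, 2.07-fold higher at 0.1 h and 2.60-fold higher at 1.0 h than at 0.0 h. Kcnj1 encodes ROMK, which is known for potassium secretion in the kidney. It had 288.6, 584.9 and 585.2, 2.03-fold higher on each later array than at 0.0 h. Both genes were close to the floor at 0.0 h, and both comparisons use that same array. A second Kcnj1 probe set had 79.6, 275.4 and 492.0, so it exceeded the floor on the later arrays alone, and the third was below the floor on all 3 arrays. The 3 smooth muscle markers were all above the floor on all 3 arrays, with summed intensities of 2114, 1800 and 2105. Myh11 had 1235.6, 920.2 and 1266.9 and Acta2 424.0, 282.5 and 291.2, both lowest at 0.1 h, while Tagln had 454.8, 597.7 and 546.7 and was highest there. The part of smooth muscle in the Kcnj8 values was not tested.

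The 250 bases upstream of the RefSeq starts of Kcnj8 and Kcnj1 are shown because these were the channel genes at least 2-fold higher on both later arrays. They are written 5' to 3' in the direction of the gene, with matches to 6 motifs in capitals.
Kcnj8, GRCr8, chr4:177246549-177246798, - strand: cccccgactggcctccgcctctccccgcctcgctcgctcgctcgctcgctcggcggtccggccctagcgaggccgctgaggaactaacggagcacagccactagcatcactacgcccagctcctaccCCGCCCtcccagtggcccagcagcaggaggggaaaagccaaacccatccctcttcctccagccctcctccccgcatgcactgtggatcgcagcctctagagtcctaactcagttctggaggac
Kcnj1, GRCr8, chr8:39037742-39037991, + strand: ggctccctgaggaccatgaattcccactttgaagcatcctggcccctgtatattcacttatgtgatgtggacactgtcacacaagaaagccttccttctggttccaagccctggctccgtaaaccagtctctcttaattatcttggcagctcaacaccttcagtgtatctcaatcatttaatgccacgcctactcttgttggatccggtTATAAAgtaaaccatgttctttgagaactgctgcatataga
The motifs, searched on both strands, were the cyclic AMP response element TGACGTCA and the TGACG it contains, the GC box GGGCGG, the TATA box letters TATAAA, the E-box CACGTG and the AP-1 site TGACTCA. The capitals mark a GC box on the reverse strand upstream of Kcnj8 and TATAAA upstream of Kcnj1, so the 2 windows shared no match. GGGCGG stood in 30.5% and TATAAA in 12.9% of the 33469 upstream windows of this length in the table, and in 44.6% and 7.7% of the 65 channel genes that had an entry there. The windows of these 65 genes had a median GC content of 59.6%, beside 51.2% for all windows. The part of GC content in the motif shares was not tested. TGACGTCA stood in 1.5% of those 65 windows, that of Clcn3, beside 1.6% of all windows. For TGACG the counts were 13 of the 65 windows and 18.2% of all windows, for CACGTG 3 of 65 and 5.6%, and for TGACTCA 1 of 65 and 4.0%. A match is a string of letters and not a bound site.

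Kcnj11, the Kir6.2 pore of the pancreatic beta cell's ATP-sensitive channel, had 2021.3, 2589.6 and 1439.5, highest at 0.1 h and 1.40-fold lower at 1.0 h than at 0.0 h. Its second probe set, made from the same sequence record, had 1298.9, 1616.9 and 1003.4 in the same order. The sulfonylurea receptor genes whose products join these pores were both above the floor on all 3 arrays. Abcc8 had 360.3, 373.1 and 368.5, and Abcc9 had 1654.3, 1946.1 and 1595.6, so neither differed by more than 1.22-fold between arrays. Kcnj14, a pore of the strong inward rectifier group, had 2829.1, 2743.5 and 1439.0. It was 1.97-fold lower at 1.0 h than at 0.0 h, which was the farthest below of the channel genes in that comparison. Kcnj15 had 1380.8, 860.8 and 1723.6, lowest at 0.1 h and 2.00-fold higher at 1.0 h than at 0.1 h. Kcnj10, Kcnj16, Kcnj3 and Kcnj4 were above the floor on 1 array each by their brightest probe sets, with highest values between 278.0 and 316.1. Kcnj10, the glial channel Kir4.1, had 206.4, 28.7 and 316.1, Kcnj16 had 278.8, 158.0 and 199.3, and Kcnj4 had 292.4, 136.1 and 80.5. A second Kcnj4 probe set had 25.3, 69.8 and 272.8 and was above the floor at 1.0 h only. Kcnj2, Kcnj5, Kcnj6, Kcnj9, Kcnj12 and Kcnj13 were below the floor on all 3 arrays. Kcnj5, Kcnj6 and Kcnj9 encode G protein-gated pores, and Kcnj3, their usual partner, exceeded the floor at 0.0 h with 278.0, and at 1.0 h with 276.5 on a second probe set.

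The Kv4 genes showed no 2-fold difference. Kcnd2 had 2143.5, 1708.3 and 2072.4, and its second probe set 1525.2, 884.6 and 1649.0, so both were lowest at 0.1 h. Kcnd3 had 611.7, 391.7 and 385.5, 1.56-fold lower at 0.1 h and 1.59-fold lower at 1.0 h than at 0.0 h. Kcnab2, a β subunit gene of Kv1 channels, had 5638.5, 3882.1 and 6837.5 and was above the 75th percentile on all 3 arrays. Its second probe set, from another sequence record, had 1277.8, 960.2 and 1325.6, and both were lowest at 0.1 h and highest at 1.0 h. The Kv1 pore genes that Kcnab2 serves were not above the floor on all 3 arrays: Kcna1 had 509.4, 406.6 and 81.7, Kcna6 314.6, 333.9 and 238.7, and Kcna4 186.0, 86.8 and 310.0. Kcna2, Kcna3 and Kcna5 were below the floor throughout, as were the β subunit genes Kcnab1 and Kcnab3. Kcnb2 of the Kv2 family had 452.1, 146.7 and 320.4. Of the Kv3 genes, Kcnc4 reached 469.8 at 0.1 h only, and Kcnc1 and Kcnc2 stayed below the floor, Kcnc2 on all 4 of its probe sets. The silent subunit gene Kcns3 was above the floor at 0.0 h and 1.0 h with 394.4 and 303.6, and Kcng1 at 0.1 h with 266.1, while Kcnf1, Kcns1 and Kcnv1 were below it.

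Genes of the EAG, ERG and ELK group had 5, 7 and 4 of 8 members above the floor at 0.0 h, 0.1 h and 1.0 h. The shares were 62.5%, 87.5% and 50.0%, beside 67.6%, 68.7% and 69.6% of all named genes. Kcnh6, an ERG gene, had 14493.5, 8445.1 and 11820.4 from 1 expressed sequence tag probe set and was the fourth member above the 75th percentile on all 3 arrays. It was 1.72-fold lower at 0.1 h than at 0.0 h. Kcnh2, the ERG gene of cardiac repolarisation, had 870.1, 676.7 and 541.4, 1.61-fold lower at 1.0 h than at 0.0 h. Kcnh3, an ELK gene, had 1714.8, 2894.5 and 1704.0, with its high value at 0.1 h, where it stood 1.69-fold above 0.0 h. Its second probe set had 364.8, 376.2 and 136.5 and a log2 difference of 0.04 between 0.1 h and 0.0 h. Kcnh1, the EAG gene, had 396.1, 515.3 and 461.2. The members that crossed the floor were Kcnh7 with 284.0, 514.5 and 155.6, Kcnh5 with 242.4, 401.6 and 60.6, and Kcnh8 with 143.6, 447.8 and 174.1. Each had its highest value at 0.1 h, under 2 times the floor. A second Kcnh8 probe set had 81.6, 94.1 and 57.1, below the floor on all 3 arrays. Kcnh4 was below the floor on all 3 arrays.

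Of the remaining potassium channel genes, Kcnn1 stood out at the last label. It encodes SK1, a small-conductance channel opened by calcium bound to calmodulin, and had 455.5, 513.9 and 1034.1 from 1 probe set. The 1.0 h value was 2.27-fold above 0.0 h and 2.01-fold above 0.1 h, while the 2 earlier values differed by 1.13-fold. Kcnk5, the two-pore channel TASK-2, had 294.0, 77.3 and 635.1. It was 2.16-fold higher at 1.0 h than at 0.0 h and below the floor at 0.1 h, and it was the member that crossed the floor with the highest value, 2.42 times the floor. Kcnk1 had 350.9, 387.1 and 482.0, and Kcnk3 was below the floor on both of its probe sets. Kcnq3, a subunit of the M-current channel, had 354.0, 678.6 and 507.8, 1.92-fold higher at 0.1 h than at 0.0 h, while Kcnq1 was below the floor. Kcnma1, the large-conductance calcium-activated pore, had 276.8, 283.2 and 183.6 on the brightest of 4 probe sets, and the other 3 were below the floor on all arrays. Kcnmb1, its β subunit gene and known from smooth muscle, had 763.6, 761.5 and 547.7. Kcne1, a small subunit of Kcnq1 channels, had 105.4, 360.3 and 268.6 on the brighter of 2 probe sets and exceeded the floor on the later arrays alone. Its other probe set had 261.9, 149.8 and 64.9, highest at 0.0 h and below the floor on all 3 arrays. Kcnn3 and Kcnt1 were below the floor on all 3 arrays.

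No sodium channel gene exceeded an intensity of 1087.7 on any array. Scn8a, a pore of neurons, had 325.5, 523.1 and 555.3, 1.61-fold higher at 0.1 h and 1.71-fold higher at 1.0 h than at 0.0 h. Scn4a, the pore of skeletal muscle, had 750.6, 1087.7 and 727.0 on the brightest of 3 probe sets, and both others were below the floor on all arrays. Skeletal muscle markers were above the floor on all 3 arrays for 1 of 5 genes, Myh1, with summed intensities of 1520, 2297 and 2945, and Acta1 was below the floor on all 3. Scn11a, a pore of sensory neurons, had 365.4, 488.2 and 402.8, and Scn7a, an atypical member that senses sodium levels, 373.1, 275.6 and 372.1. Scn3a, a pore of the developing brain, and Scn9a, a pore of peripheral neurons, were above the floor at 1.0 h only with 386.5 and 282.4, and Scn2a at 0.0 h only with 412.8. The second probe sets of Scn3a and Scn9a had 31.3, 34.8 and 26.1, and 172.4, 161.5 and 63.4, both lowest at 1.0 h and below the floor throughout. Scn1a, Scn10a and the β subunit gene Scn2b were below the floor on all 3 arrays. Central neuron markers were above the floor on all 3 arrays for 5 of 11 genes, with summed intensities of 8304, 12287 and 7348, and Camk2a, Gad2 and Slc17a7 were below it on all 3. Snap25, which is also listed below as a release protein gene, was the largest part of the sum on each array with 5476.5, 8064.6 and 3544.3. Grin1 with 798.0, 1211.3 and 923.8, Gad1 with 275.7, 342.8 and 246.6, and Nefm with 51.7, 351.5 and 48.6 were also highest at 0.1 h. Nefl was lowest at 0.1 h, and Nefh, Syn1 and Gria1 were highest at 1.0 h. The part of neurons or muscle in the sodium channel values was not tested.

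Chloride and TRP genes were few. Clcn3, an endosomal chloride-proton exchanger, had 1233.4, 1546.1 and 1852.1, 1.5-fold higher at 1.0 h than at 0.0 h, and Clcn4, a related exchanger, had 682.0, 750.6 and 723.6. Clcn1, Clcn5 and Clcn7 were below the floor on all 3 arrays. Trpc1, a subunit of receptor-linked cation channels, had 720.4, 1480.9 and 987.0, 2.06-fold higher at 0.1 h than at 0.0 h. Its second probe set, made from the same sequence record, had 524.7, 836.3 and 428.1 and was 1.59-fold higher at 0.1 h. At 1.0 h the 2 probe sets disagreed, with log2 differences from 0.0 h of 0.45 and -0.29. Trpc4 had 340.2, 271.0 and 299.0. Trpv1, the capsaicin receptor, had 145.5, 373.8 and 138.7 and was above the floor at 0.1 h only.

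**Figure D3:**
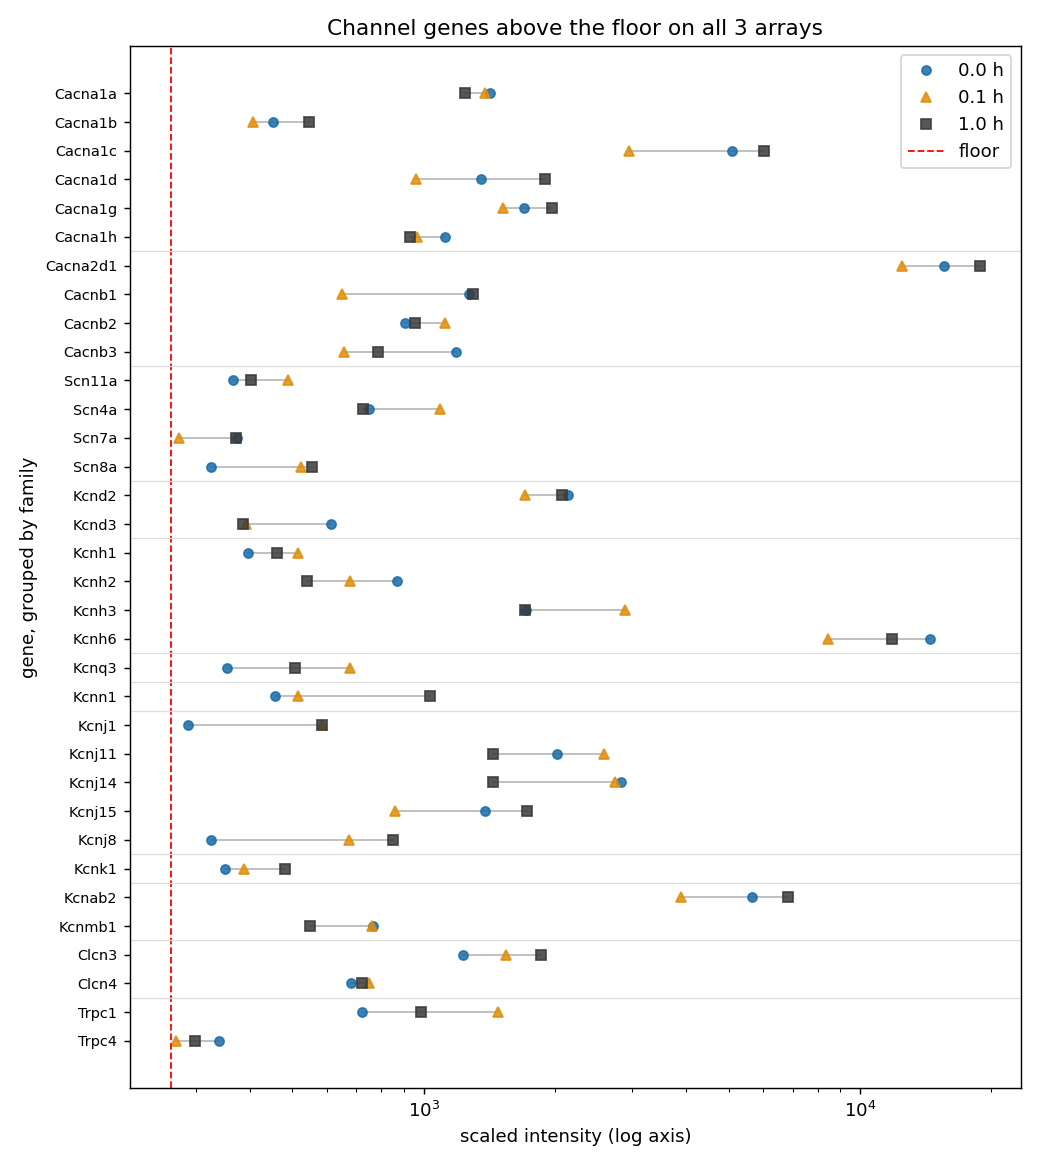
Points give the scaled intensity on a log axis for each of the 34 channel genes above the floor on all 3 arrays, 1 point per array, with the floor of 262.9 as a dashed line and grey lines between families. Kcnj1, Kcnj8 and Kcnn1 have their lowest value at 0.0 h, while Cacna1c, Cacnb1 and Kcnj15 have theirs at 0.1 h.

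Between the first labels, 0.1 h was set against 0.0 h. Among the 38 channel genes that could be measured at both labels, 3 reached a 2-fold higher value at 0.1 h, namely Kcnj8, Trpc1 and Kcnj1, and none reached a 2-fold lower value. Across all 2993 named genes, the shares past 2-fold were 5.65% upward and 4.71% downward. Dim genes, with the dimmer array under 2 times the floor, gave 2 of 16 channel genes 2-fold higher, beside 11.4% of 578 named genes. Channel genes had a median log2 difference of -0.02, beside 0 for all named genes, with 18 higher and 20 lower. The SD of the log2 differences, from the median absolute deviation, was 0.58 for channel genes and 0.51 for all named genes, and it describes these 2 arrays. Kcnj8, Trpc1 and Kcnj1 lay between 1.02 and 1.05 on the log2 scale, at the edge of the threshold, and with quantile or cyclic loess normalisation none of the 3 was 2-fold higher and 1 channel gene was 2-fold lower.

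The last label, 1.0 h, was also set against 0.0 h. Of 39 channel genes, 4 were at least 2-fold higher at 1.0 h, namely Kcnj8, Kcnn1, Kcnk5 and Kcnj1, and none reached a 2-fold lower value. Across 3029 named genes, the shares past 2-fold were 2.41% upward and 2.61% downward. All 4 were dim at 0.0 h, under 2 times the floor. Of all channel genes this dim on either array 4 of 17 were 2-fold higher, beside 6.23% of 594 named genes. The median log2 difference was 0.09 for channel genes and 0.01 for all named genes, and 22 channel genes were higher and 17 lower. Quantile and cyclic loess normalisation each left 2 of the 4, Kcnj8 and Kcnn1, at least 2-fold higher.

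Between the later labels, 1.0 h was set against 0.1 h. Of 35 channel genes, 3 were at least 2-fold higher at 1.0 h, namely Cacna1c, Kcnn1 and Kcnj15, and none reached a 2-fold lower value. Across 3042 named genes, the shares past 2-fold were 4.11% upward and 5.03% downward. Cacnb1 and Cacna1d were 1.99-fold and 1.97-fold higher at 1.0 h, just outside the threshold. The farthest below were Kcnj14 and Kcnj11, 1.91-fold and 1.80-fold lower at 1.0 h than at 0.1 h. Of dim channel genes 1 of 11 was 2-fold higher, beside 6.1% of 574 named genes. The median log2 difference was 0.09 for channel genes and 0 for all named genes. In all 3 comparisons together, 7 channel genes were at least 2-fold apart at least once, and the comparisons share arrays. Scaling to the 9 spike-in probe sets, chosen after the data were seen, moved the median of all named genes to -0.28, 0.21 and 0.47 in the 3 comparisons. Under it 0 channel genes were 2-fold higher and 4 2-fold lower at 0.1 h than at 0.0 h, beside 2.67% and 10.2% of all named genes. At 1.0 h against 0.1 h 7 were 2-fold higher, beside 16.8% of all named genes.

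**Figure D4:**
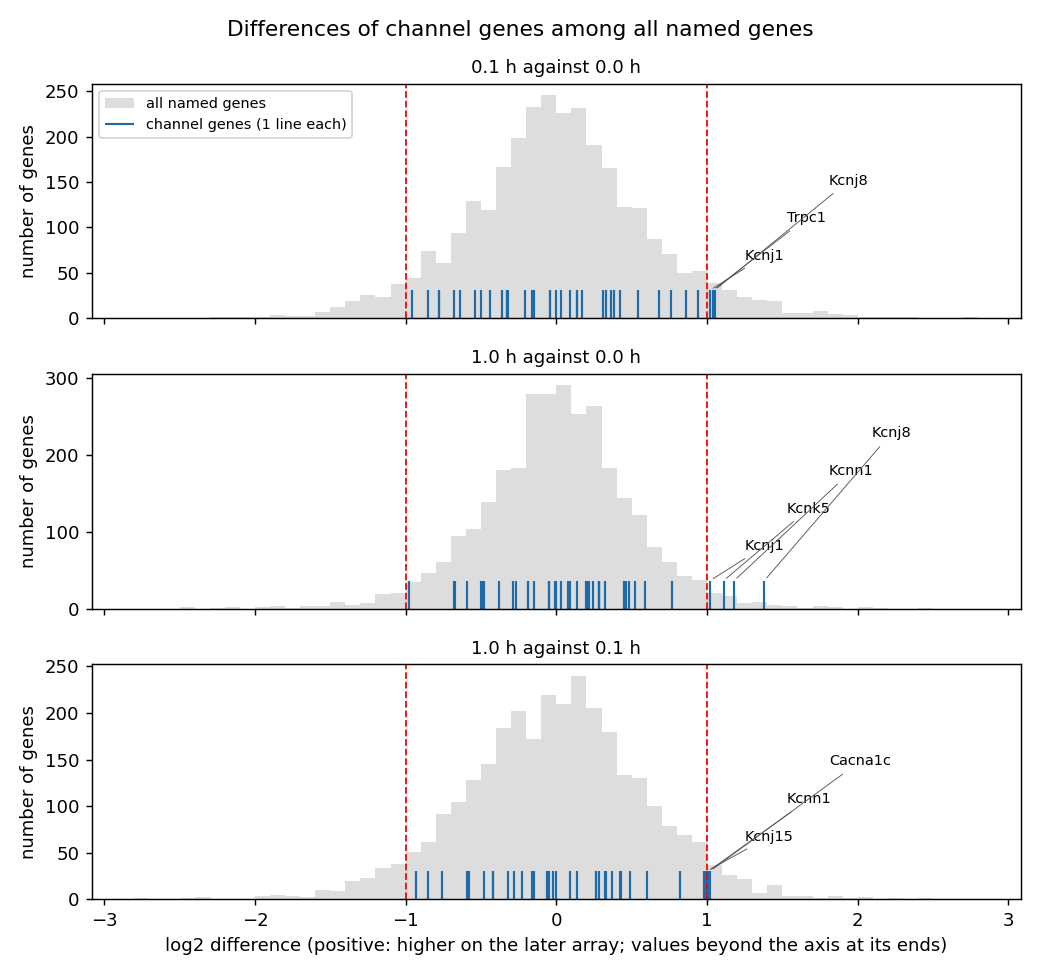
Grey histograms give the log2 differences of all named genes above the floor on both arrays, and blue lines those of the channel genes, with dashed lines at 2-fold and positive values for genes higher on the later array. Channel genes spread across the middle of the histograms, from -0.98 to 1.38, and the 3, 4 and 3 named ones lie at or beyond the upper 2-fold line.

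Other genes of excitability, a list chosen by textbook role that covers ion pumps and exchangers, calcium stores, calmodulin kinases, scaffolds and release proteins, gave 52 named genes of 67 listed. Of these 30 were above the floor on all 3 arrays, or 57.7%, beside 39.5% of channel genes and 61.6% of all named genes. Of 31 measured at 0.1 h and 0.0 h, 2 were at least 2-fold higher at 0.1 h, beside 5.65% of all named genes. These were Slc8a1, the sodium-calcium exchanger, with 904.3, 2422.0 and 888.7, and Dlg4, the scaffold PSD-95, with 377.0, 1020.8 and 431.7. At 1.0 h against 0.0 h none of 31 was 2-fold higher and 2 were at least 2-fold lower, beside 2.41% and 2.61% of all named genes. The 2 lower genes were Nedd4 at 5.49-fold and the kinase gene Camk2d at 2.11-fold. At 1.0 h against 0.1 h none of 34 was 2-fold higher and 4 were 2-fold lower, beside 4.11% and 5.03% of all named genes. The 4 lower genes were Nedd4, Slc8a1, Dlg4 and the release protein gene Snap25. The rod channel genes Cnga1 and Cngb1 were above the floor on all 3 arrays, Cngb1 with 3964.6, 3593.3 and 3968.3 and Cnga1 with 1235.0, 1027.0 and 842.3. The cone channel gene Cnga3 had 192.2, 376.4 and 285.7 and was below the floor at 0.0 h.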

How the data were processed

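RNA was measured on 3 arrays, 1 per time label. The authors deposited 1 linear intensity per probe set, and the sources used here do not name the summary method or software. These deposited intensities had equal trimmed means (2499.9 on each array without the outer 2%), so they had been scaled before deposit.

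Of 8799 probe sets, 59 controls were left out of counts. Genes were named through the platform annotation from the 7006 probe sets with 1 symbol, and all 86 channel genes matched a RefSeq table of GRCr8 by gene ID. Intensities were set to the array median on the log2 scale, the floor was taken at the 40th percentile (262.9), and arrays were then shifted so that medians above it were equal. The total shift of the deposited log2 values was 0.008, 0.04 and -0.048. A difference was taken where both arrays exceeded the floor and counted at 2-fold. There were no p-values.

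All channel genes are named: those at least 2-fold apart, or above the 75th percentile with their values, those crossing the floor with at least the values above it, and most others above the floor too. Members and lists were chosen with earlier results of these data known. Alternatives used other scalings (cyclic loess from limma 3.58.1 in R 4.3.3), floors and probe sets. The scaling and counts were also run on simulated data. The outcome is not given here, and nothing about differences near 2-fold or genes near the floor is drawn from it. Upstream sequences are from RefSeq, GRCr8.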

Additional observations from a re-analysis of the deposited data

How the results depend on the processing

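No paired analysis was possible because each time label had 1 array. Medians counted as moved at 0.1 on the log2 scale or more. Counts were taken as moved when they differed by more than 1.5-fold, or when only 1 of the compared counts was 0. Smaller changes of a count are mostly not listed. The 10 named 2-fold differences gave 60 values under the other settings, of which 37 stayed at least 2-fold, 23 came under 2-fold and 0 reversed. Of the counts, 34 channel genes above the floor on all 3 arrays became 55 and 16 with the floor at the 20th and 60th percentile, and 2 of 32 genes on second-brightest probe sets. With probe sets averaged they became 25, a change within the 1.5-fold tolerance. For 0.1 h against 0.0 h, the 3 higher genes became 0 with quantile, cyclic loess or spike-in scaling, the 60th percentile floor or second probe sets, and 1 with probe sets averaged. The 0 lower genes became 1 with quantile, cyclic loess or averaged probe sets, 7 with the 20th percentile floor and 4 with spike-in scaling. The median of -0.02 became -0.20, -0.15, -0.41 and -0.30 with the 20th and 60th percentile floors, second probe sets and spike-in scaling. For 1.0 h against 0.0 h, the 4 higher genes became 2 with quantile or cyclic loess normalisation and 0 with the 60th percentile floor or second probe sets. The 0 lower genes became 5 with the 20th percentile floor, and the median of 0.09 became -0.07 there and 0.28 with spike-in scaling. For 1.0 h against 0.1 h, the 3 higher genes became 5 as deposited or with quantile normalisation, 6 with the 20th percentile floor, 7 with spike-in scaling and 0 on second probe sets. The 0 lower genes became 6 with the 20th percentile floor and 1 with averaged probe sets. The median of 0.09 became 0.27, 0.26, 0.84 and 0.55 with the 60th percentile floor, averaged probe sets, second probe sets and spike-in scaling. None of the 10 could be read from second-brightest probe sets, a reading that left out second probe sets of the same record, such as that of Trpc1. The 7 calcium channel genes lowest at 0.1 h became 4 with the 60th percentile floor and 0 of 0 on second probe sets. Fewer genes or probe sets were measured with the higher floor and on second probe sets; the cause of the other changes was not tested. Dim genes near the floor limit every count.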
